A study of Mus musculus with 4 samples.

Results

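The core spliceosome was followed through 60 mouse genes, of 18193 genes named on the array. Most encode proteins of the U1, U2, U4/U6 and U5 small nuclear ribonucleoproteins (snRNPs) or their closest partners. The 60 also include 6 LSm genes outside U6, such as those of the U7 snRNP and of mRNA decay, and 3 genes of the minor U11/U12 spliceosome. Members were chosen by name: every probe set annotated to a single gene symbol beginning with Sf3a, Sf3b, Snrp, Snrnp, Prpf, U2af or Lsm plus a digit, or equal to Sf1, Cdc5l, Plrg1, Bcas2, Crnkl1, Slu7, Eftud2 or Sart1. That gave 148 probe sets, of which 127 were bright enough to be tested and 21 were not, and each of the 60 genes kept at least 1 tested probe set. A further 12 probe sets carried such a symbol beside others and were left out. The subunit genes Snrpa, Snrpd1, Snrpd2 and Lsm5 were not analysed here.

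RNA came from the cytoplasm of Neuro2A cells, a mouse neuroblastoma line, in 2 groups of 2 arrays: cells depleted of 4.5SH with antisense oligonucleotides (the knockdown) and control cells. 4.5SH is a small noncoding RNA of rodents, and the study looked for its targets among asB1 genes, those that hold antisense B1 repeats. No probe set for 4.5SH itself was used here, so its level does not check the labels. The transfection text, with 30 nM oligonucleotide, is the same for all 4 samples, but the sources used here do not name the oligonucleotide of the control cells, so loss of 4.5SH and other effects of transfection cannot be told apart. The replicates are labelled biological, with no word on separate cultures, so the p-values rest on the spread between these arrays only, which may be technical.

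The spliceosome removes introns from pre-mRNA in the nucleus. U1 pairs with the start of the intron, SF1 and the U2AF heterodimer mark the branch point and the intron's end, and U2 then takes over the branch point. The tri-snRNP of U4/U6 and U5 joins, U4 leaves, and the Prp19 complex helps to hold the catalytic core in place. The Sm proteins form the ring that U1, U2, U4 and U5 share, and the LSm proteins form the ring of U6. The arrays read the mRNAs of these proteins in the cytoplasm and say nothing of the snRNAs or of splicing itself.

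Values are MAS5 signals, a background-adjusted brightness per probe set. A log2 fold change is the knockdown minus the control on the log2(signal + 16) scale, so it understates changes of dim genes. A gene is its brightest tested probe set, ± is the standard error of the limma fit, and a gene passed where limma's Benjamini-Hochberg adjusted p over all 11804 tested genes was under 0.05. Trimmed mean signals were 128 and 132 on the knockdown arrays against 149 and 143 on the control arrays, and the typical tested gene read lower in the knockdown, with a median log2 fold change of -0.16. Probe sets with 1 symbol existed for 7 of 9 Neuro2A markers, and 6 were bright enough to test. Their summed signal was 7090 to 7230 in the knockdown and 8010 to 8020 in the control, and Phox2a (-0.23) and Stmn2 (-0.17) fell. Hand2, a transcription factor of sympathetic neurons, read 1419 and 1474 in the knockdown, against 1532 and 1631 in the control, while Dbh and Th, enzymes of catecholamine synthesis, read at most 36.5 on any array. The summed signal of 9 markers of fibroblasts, blood and epithelium was 481 to 484 in the knockdown and 771 to 838 in the control. Cd68 made most of it, at 338 and 342 against 619 and 721, and Ptprc, a marker of white blood cells, read at most 8.1. The part of other cells in the results below was not tested.

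The member mRNAs were mostly lower in the knockdown. Of the 60 genes 43 fell (71.7%), 1 rose (1.67%) and 16 did not pass, where 35.2% of all tested genes fell and 9.79% rose. Bright genes pass more often. With only the brightest 25% of probe sets kept, 75.9% of 58 members fell, against 47.9% of all genes. The medians were then -0.35 and -0.2. The median log2 fold change of the members was -0.34 against -0.16 for all genes, and 47 of the 60 lay below that all-gene median. On the deposited scale no member gene fell by 2-fold or more at its brightest probe set, though with spike-in centring Prpf4b (-1.07) and Snrnp70 (-1.06) did. On the deposited scale 15 of 60 (25%) read lower by a log2 of 0.5 or more, compared with 18.2% of all genes. Both knockdown arrays lay under both control arrays in 48 members (80%) and over them in 5 (8.33%), against 51.6% and 19.7% of all tested genes. The difference between members and all genes was wider for falls that passed than for differences of at least 0.5. These are unlike measures, because passing also depends on the standard error of each gene. For 2 arrays a group the smallest p of an exact permutation test is 0.333, so every call rests on the variance that limma pools across genes.

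**Figure D1:**
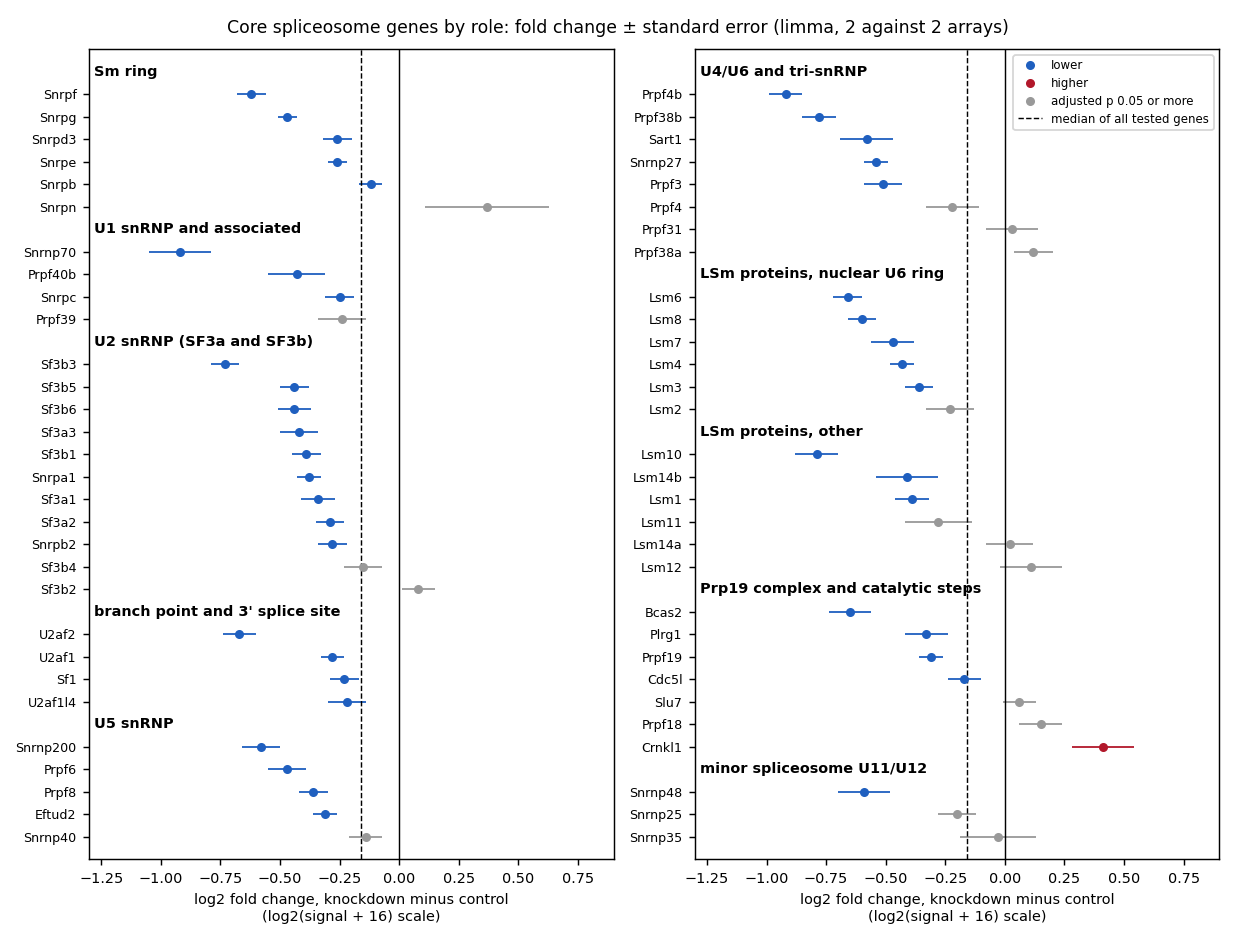
Log2 fold change (knockdown minus control, x axis) ± standard error of each of the 60 genes, in blocks by role; blue fell, red rose, grey did not pass an adjusted p of 0.05, and the dashed line is the all-gene median of -0.16. Most points lie left of the dashed line, from -0.92 for Prpf4b to 0.41 for Crnkl1.

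The number of calls depended on how the arrays were scaled. The median of the members was lower than that of all genes by 0.15 to 0.19 on the log2 scale in each of 5 scalings. Centring divides each array by 1 factor, which moves members and all genes nearly alike, so it could hardly change this difference. Quantile scaling could change it. The median of the members minus that of all genes was then -0.15, against -0.17 on the deposited scale. With quantile scaling the all-gene median moved to -0.04 and that of the members to -0.19, and 32 members fell and 5 rose, where 22.6% of all genes fell and 17.7% rose. Centring on the tested probe sets also left 32 lower and 5 higher members, where 24% of all genes fell and 17.3% rose. Centring on all probe sets left 39 and 1, against 30.2% and 10.7% of all genes. With centring on the spike-in probe sets these were 50 and 0, against 45.2% and 4.79%. For all genes the share that fell under every alternative was not computed. Of the 43 genes that fell on the deposited scale, 25 also fell under each of the 16 alternatives that measured them.

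**Figure D2:**
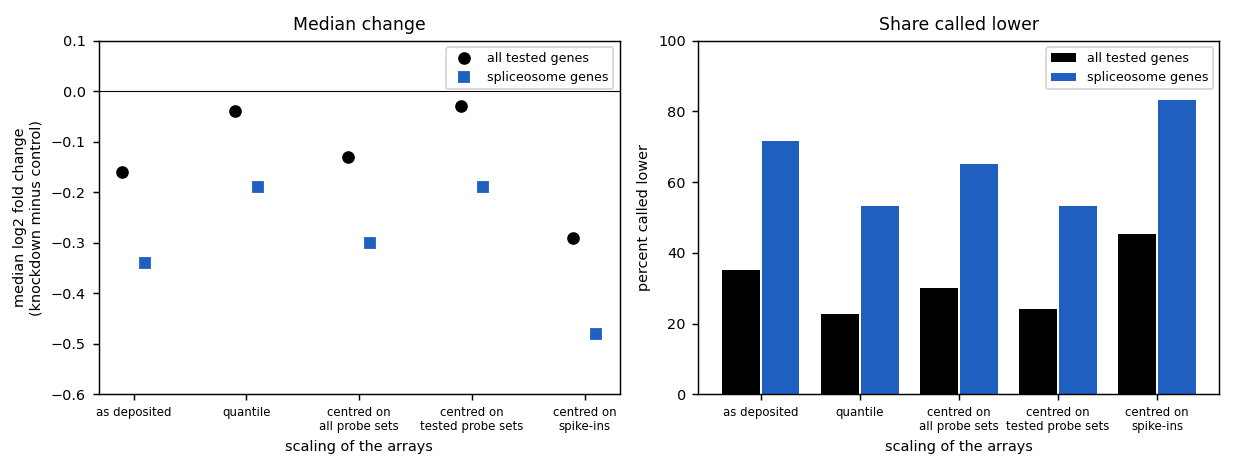
Left, median log2 fold change (knockdown minus control) of all genes (circles) and of the spliceosome genes (squares) under 5 scalings of the arrays. Right, percent of each called lower; the bars of the spliceosome genes range from 53.3 to 83.3 and those of all genes from 22.6 to 45.2.

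The sequence before the start of transcription is shown for 3 genes at the ends of the range: Prpf4b and Snrnp70, which fell most, and Crnkl1, the 1 that rose at gene level. Each is 250 bases long, from RefSeq on build GRCm38.p6, and ends at the base before the annotated start, with matches to 6 motifs in capitals. The windows are chr13:34875279-34875528 (plus strand), chr7:45395743-45395992 (minus strand) and chr2:145934701-145934950 (minus strand).

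Prpf4b: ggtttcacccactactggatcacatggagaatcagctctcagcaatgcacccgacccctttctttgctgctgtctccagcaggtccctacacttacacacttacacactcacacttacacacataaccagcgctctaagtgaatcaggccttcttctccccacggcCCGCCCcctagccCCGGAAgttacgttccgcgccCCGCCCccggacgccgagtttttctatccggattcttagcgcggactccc

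Snrnp70: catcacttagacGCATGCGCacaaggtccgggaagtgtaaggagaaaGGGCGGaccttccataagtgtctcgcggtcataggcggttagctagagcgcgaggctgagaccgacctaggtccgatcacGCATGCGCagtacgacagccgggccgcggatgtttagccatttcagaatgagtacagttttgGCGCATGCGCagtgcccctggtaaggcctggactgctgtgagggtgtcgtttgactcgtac

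Crnkl1: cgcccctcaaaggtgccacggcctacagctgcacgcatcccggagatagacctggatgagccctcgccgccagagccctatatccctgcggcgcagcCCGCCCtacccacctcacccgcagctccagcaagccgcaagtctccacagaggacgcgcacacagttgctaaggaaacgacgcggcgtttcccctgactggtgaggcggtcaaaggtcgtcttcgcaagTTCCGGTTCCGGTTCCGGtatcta

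Motifs were searched on both strands, with overlaps counted: CCGGAA (bound by ETS factors), GCATGCGC (NRF1), AAGATGGC (YY1), GGGCGG (the GC box), CCAAT (NF-Y) and TATAAA (the TATA box). Of the members 49 had an entry in the promoter table, of 27025 genes in all, with the first entry taken for each gene. Those 27025 include genes not tested here, while every member was tested, so the shares below compare unlike sets. CCGGAA stood in 21 of the 49 windows (42.9%, against 12.2% of all), GGGCGG in 28 (57.1%, against 32.9%) and GCATGCGC in 6 (12.2%, against 2.32%). CCAAT stood in 20 (40.8%, against 34.5%), TATAAA in 2 (4.08%, against 13%) and AAGATGGC in 0 of 49, against 1.59% of all. Snrnp70 held 4 matches to GCATGCGC, of which 2 overlap, and Crnkl1 held 3 to CCGGAA. The members with CCGGAA had a median log2 fold change of -0.31 and those without it -0.37, and for GGGCGG these were -0.38 and -0.26. Letters in a window are a description and show neither binding nor a cause.

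Of the 6 Sm ring genes measured 5 fell and Snrpn did not pass. This count and those of the roles below stand beside the 35.2% of all tested genes that fell. The roles hold 3 to 11 tested genes, and none was tested against that share. Snrpg, which encodes SmG, read 6023 and 5940.3 in the knockdown, against 8433 and 8187 in the control, a fall of 0.47 ± 0.04 (adjusted p = 1.18e-07, limma). Its other probe set read 2074 and 2077 against 4149 and 4372 and was at -1.03 ± 0.05, the largest fall among the tested member probe sets. The groups were apart at both, and the mean of the 2 probe sets was -0.75. Snrpf, for SmF, read 1321 and 1356 against 2166 and 1973, which gave -0.62 ± 0.06 (adjusted p = 6.2e-07, limma).

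Snrpe and Snrpd3, for SmE and SmD3, were each at -0.26. Centred on the tested probe sets both were at -0.11 and did not pass, and neither did Snrpd3 with quantile scaling (-0.09). The other 2 probe sets of Snrpd3 were at -0.75 and -0.74, so its brightest one showed the smallest of its 3 falls. Snrpb, which encodes SmB, was at -0.12 ± 0.05 and only just passed (adjusted p = 0.0484, limma), and it did not pass with quantile scaling, where it was at 0, with centring on the tested probe sets, where it was at 0.03, or without either control array. Its other probe set fell by 0.34. Snrpn, for the SmB-like protein SmN of neurons, was the dimmest member, with 16.9 and 27.6 in the knockdown, against 12.6 and 14.1 in the control. Its difference of 0.37 ± 0.26 did not pass (adjusted p = 0.261, limma). The values of Snrpe, Snrpg and Snrpb come from probe sets ending in _s_at, a suffix for those that can match more than 1 transcript, so near-identical copies may add to the signal; this holds for 13 of the 60 members, counting _x_at.

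Among the U1 proteins 3 of 4 measured genes fell. Snrnp70, the U1-70K protein that binds the U1 RNA directly, read 239 and 325 in the knockdown, against 610.0 and 478 in the control. The arrays of each group differed widely here, but the groups did not overlap, and the fall was 0.92 ± 0.13 (adjusted p = 1.81e-05, limma). Its 3 other probe sets were below the filter, at no more than 21.8 on any array. Prpf40b, a U1-associated protein that can bridge to the branch point, read 156 and 172 against 243 and 212, at -0.43 ± 0.12 (adjusted p = 0.00559, limma). That call was lost without knockdown replicate 1 (adjusted p = 0.0575) and without control replicate 1 (adjusted p = 0.0524), while the direction stayed. Snrpc, the U1-C protein that steadies pairing with the 5' splice site, read 2384 and 2215 against 2764 and 2703, at -0.25 ± 0.06, and did not pass with quantile scaling (-0.10). Prpf39, another U1 partner, was at -0.24 and did not pass.

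U2 was the largest block, with 9 of 11 genes lower, a median of -0.38 and no gene higher. Sf3b3, a scaffold subunit of SF3b, read 1077 and 1175 in the knockdown, against 1917 and 1848 in the control, a fall of 0.73 ± 0.06 (adjusted p = 1.38e-07, limma). Sf3b5, the small subunit bound to it, read 1160.4 and 1141 against 1547 and 1590.1, at -0.44 ± 0.06, and its second probe set was at -0.52. Sf3b6, the p14 protein that lies at the branch point adenosine, read 940 and 947 against 1277 and 1303, at -0.44 ± 0.07. In all 3 the knockdown arrays lay under the control arrays.

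Sf3b1, the subunit that clamps the branch point helix, read 1809 and 2012 against 2573 and 2432 at its brightest probe set, at -0.39 ± 0.06. The 3 SF3a genes fell by similar amounts, with Sf3a3 at -0.42, Sf3a1 at -0.34 and Sf3a2 at -0.29, as did the U2-specific proteins Snrpa1 (-0.38) and Snrpb2 (-0.28). All 3 probe sets of Snrpa1 and both of Sf3a2 fell. As the mean of their probe sets, Sf3a3 (-0.20) and Snrpb2 (-0.04) did not pass. Sf3b4 (-0.15) and Sf3b2 (0.08) did not pass at their brightest probe sets. In Sf3b2 2 of the 6 tested probe sets fell, by 0.50 and 0.30, and their mean was -0.20, yet with quantile scaling its brightest one was at 0.25 and passed as higher.

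The genes that recognise the branch point and the 3' splice site fell in 4 of 4 cases. U2af2, which reads the polypyrimidine tract, was clearly apart, at 628 and 619 in the knockdown, against 996 and 1006 in the control, a fall of 0.67 ± 0.07 (adjusted p = 1.09e-06, limma). Its partner U2af1, which reads the AG at the intron's end, changed less, from 2479 and 2426 in the control to 2009 and 2016 in the knockdown (-0.28 ± 0.05). Sf1, the branch point-binding protein, read 5214 and 5126 against 6505 and 5645, at -0.23 ± 0.06, with 3 of its 5 probe sets lower. The paralogue U2af1l4 was at -0.22. With quantile scaling U2af2 was at -0.49 and still fell, while U2af1 (-0.11), Sf1 (-0.13) and U2af1l4 (-0.03) did not pass. Sf1 also did not pass without control replicate 1, at -0.13 (adjusted p = 0.0556), and U2af1l4 lost its call without either knockdown replicate and without control replicate 2.

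Of the 5 U5 genes 4 fell. Snrnp200, the helicase that unwinds U4 from U6, read 519 and 523 in the knockdown, against 823 and 750 in the control, at -0.58 ± 0.08 (adjusted p = 1.51e-05, limma). Its dimmer probe set was at -0.13 and did not pass, and the mean of both was -0.35. Prpf6, which bridges U5 and U4/U6, read 441 and 468 against 638 and 636, at -0.47 ± 0.08, with its second tested probe set at -0.79. Prpf8, the protein at the heart of the catalytic centre, read 1400 and 1444 against 1918 and 1752, at -0.36 ± 0.06. The GTPase Eftud2 was at -0.31 with its 3 tested probe sets all lower. Snrnp40, a WD-repeat protein of U5, did not pass at its brightest probe set (-0.14), but its other probe set read 536 and 514 against 851 and 723 and fell by 0.57, and the mean of both, -0.35, passed.

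At the brightest probe sets the U4/U6 and tri-snRNP block had the lowest median, -0.52, with 5 of 8 genes lower. As the mean of probe sets its median was no longer the lowest, and the U6 LSm ring and the Sm ring lay below it. Prpf4b, a kinase that phosphorylates tri-snRNP proteins, read 635 and 602 in the knockdown, against 1165 and 1212 in the control, a fall of 0.92 ± 0.07 (adjusted p = 3.82e-08, limma). Only 2 of its 5 tested probe sets fell, the other 3 did not pass (-0.13 to 0.12), and their mean was -0.31. Prpf38b, a paralogue of the tri-snRNP protein Prpf38a, read 743 and 731 against 1255 and 1306, at -0.78 ± 0.07, and its second tested probe set was at -0.34. Sart1, a tri-snRNP protein needed for it to join the spliceosome, read 209 and 174 against 282 and 304, at -0.58 ± 0.11. Snrnp27 (-0.54) and the U4/U6 protein Prpf3 (-0.51) also fell. Prpf4 (-0.22), which binds Prpf3, and Prpf31 (0.03), which holds U4/U6 to U5, did not pass, nor did Prpf38a (0.12), which passed as higher with quantile scaling (0.31). As the mean of probe sets Prpf4 was at 0.12.

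The LSm proteins of the U6 ring fell in 5 of 6 cases. Lsm6 read 1011 and 990 in the knockdown, against 1579 and 1597 in the control, a fall of 0.66 ± 0.06 (adjusted p = 3.48e-07, limma), and all 3 of its tested probe sets fell. Lsm8, which sets the nuclear ring apart from the cytoplasmic one, read 1473 and 1620.4 against 2274 and 2434, at -0.60 ± 0.06. Lsm7 read 392 and 408 against 601 and 524, at -0.47 ± 0.09. Lsm4 (-0.43) and Lsm3 (-0.36) fell too, while Lsm2 (-0.23) did not pass.

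Outside U6, 3 of 6 genes of the LSm family fell, where 35.2% of all tested genes did. Lsm10, a protein of the U7 snRNP that processes histone mRNA ends, read 290 and 311 in the knockdown, against 545 and 515 in the control, at -0.79 ± 0.09 (adjusted p = 2.08e-06, limma). Lsm11, its partner in U7, was at -0.28 and did not pass at its brightest probe set, and its other probe set fell by 0.50. Lsm1, which replaces Lsm8 in the cytoplasmic ring that acts in mRNA decay, read 873 and 821 against 1164 and 1065, at -0.39 ± 0.07. Lsm14b, an RNA-binding protein of processing bodies, read 97.7 and 115 against 151 and 141, at -0.41 ± 0.13. That call did not hold without knockdown replicate 1 (adjusted p = 0.154), without control replicate 1 (adjusted p = 0.0723) or under quantile normalisation (adjusted p = 0.0825). Lsm14a (0.02) and Lsm12 (0.11) did not pass.

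The Prp19 complex and the factors of the catalytic steps moved both ways, with 4 genes lower, 1 higher and 2 not passing. Bcas2, a core subunit of the complex, read 323 and 305 in the knockdown, against 527 and 477 in the control, at -0.65 ± 0.09 (adjusted p = 1.96e-05, limma). Its dimmer probe set was at 0.38 and did not pass, and the mean of both, -0.14, did not pass either. Plrg1, another core subunit, read 469 and 555 against 640.2 and 651, at -0.33 ± 0.09, but without knockdown replicate 1 it was at -0.21 and did not pass (adjusted p = 0.107). Prpf19, the ubiquitin ligase that names the complex, had 5 probe sets that all fell, from 0.31 for the brightest to 0.89 for the dimmest, with a mean of -0.58. Cdc5l barely passed, at -0.17 (adjusted p = 0.0457, limma), and did not pass without either knockdown replicate, without control replicate 1, with the replicate block or under 3 of the 5 scalings. Its second probe set was at 0.15 without passing, and the mean of both was -0.01. Crnkl1, a helical repeat protein that holds the catalytic core together, read 154 and 136 in the knockdown, against 104 and 106 in the control, a rise of 0.41 ± 0.13 (adjusted p = 0.0163, limma). Its second probe set was at 0.41 as well, without passing. The rise of Crnkl1 did not pass without knockdown replicate 1 (0.33, adjusted p = 0.151) or with spike-in centring (0.28). The second-step factors Slu7 (0.06) and Prpf18 (0.15) did not pass at their brightest probe sets. As the mean of its 6 tested probe sets Slu7 was at 0.27 and passed (adjusted p = 0.0212, limma), and with quantile scaling both passed as higher, Slu7 at 0.22 and Prpf18 at 0.33.

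Of the 3 proteins of the minor spliceosome, which removes a rare class of introns, only Snrnp48 fell at its brightest probe set. That share is near the 35.2% of all tested genes that fell. Snrnp48 read 258 and 221 in the knockdown, against 335 and 404 in the control, at -0.59 ± 0.11 (adjusted p = 0.000348, limma). That probe set ends in _s_at, its other tested probe sets were at -0.19 and -0.04 without passing, and the mean was -0.27. Snrnp25 read 560 and 524 against 630.3 and 616, at -0.20 ± 0.08, and did not pass (adjusted p = 0.0538, limma). Snrnp35 read 71.6 and 82.5 against 88.1 and 70.5, so its groups overlapped, at -0.03 ± 0.16.

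**Figure D3:**
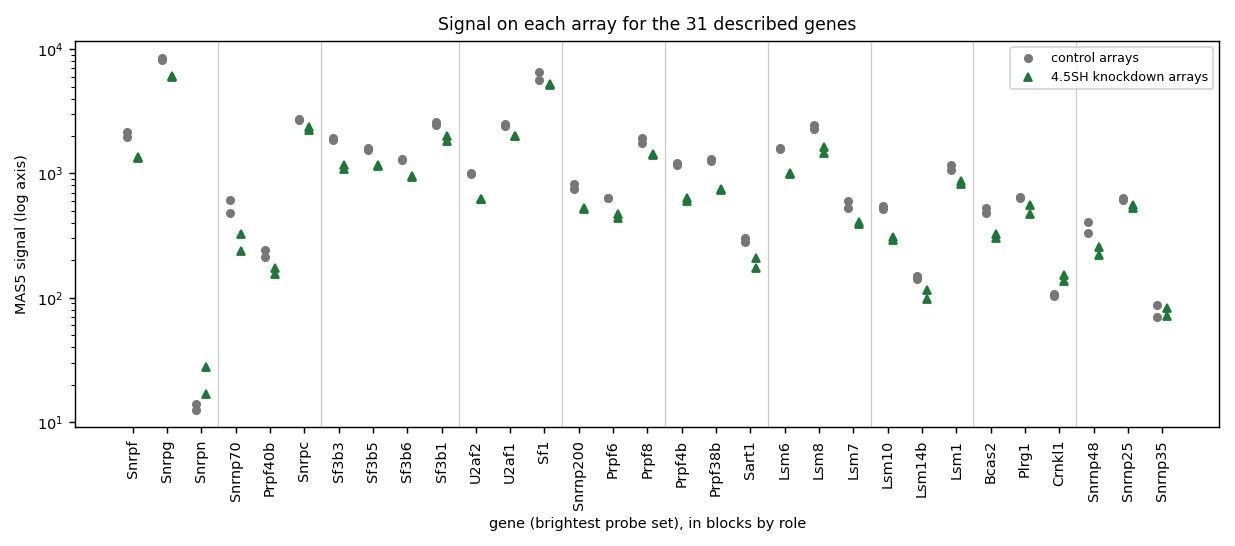
MAS5 signal (log axis) on each of the 4 arrays for the 31 genes with per-array values, in blocks by role, with control arrays as circles and knockdown arrays as triangles. The knockdown triangles lie below the control circles for each gene from Snrpf to Snrnp25 except Snrpn and Crnkl1, where they lie above, and Snrnp35 overlaps.

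Probe sets of a single gene did not always move alike. Over all member probe sets 69 of 127 fell (54.3%), 7 rose (5.51%) and 51 did not pass, against 25.8% and 9.73% of all tested probe sets, adjusted over these. In 38 genes more than 1 probe set was tested. Every tested probe set fell in 12 of them, some fell and the rest did not pass in 14, and none passed in 7. In 3 some rose and the rest did not pass, and in 2 genes, Sf3b1 and Sf3b3, probe sets passed in opposite directions. The same counts were not made over all genes of the array, so whether those of the members are unusual was not tested.

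Sf3b1 showed the widest split. Its probe set 1418562_at read 550.1 and 511 in the knockdown, against 145 and 137 in the control, a rise of 1.80 ± 0.10, or 3.47-fold on the pseudocount scale (adjusted p = 6.31e-08, limma over probe sets). The probe set 1418561_at of the same gene read 128 and 121 against 206 and 201, at -0.65 ± 0.12 (adjusted p = 0.000724, limma), and fell together with the brightest one. The fourth, 1440818_s_at, read 1630 and 1927 against 1826 and 1841 and overlapped between groups, at -0.05. The mean of all 4 was 0.18 and did not pass, so the direction given for this gene depends on the probe set. The opposite moves held under each of the 5 scalings, with 1418562_at at 1.66 to 1.96 and 1418561_at at -0.78 to -0.50.

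In Sf3b3 the dim probe set 1430075_at read 123 and 158 in the knockdown, against 78.2 and 64 in the control and rose by 0.84 ± 0.16 (adjusted p = 0.000848, limma), opposite to the brightest one. The mean of the 2 was 0.05. Slu7, which acts in the choice of the 3' splice site, had 3 of 6 tested probe sets higher, by 0.80, 0.45 and 0.25, and 3 that did not pass (0.03 to 0.06). The one with the largest rise, 1425487_at, read 242 and 283 against 128 and 162. In Lsm14a 1 of 3 rose, by 0.25, and in Crnkl1 1 of 2. With spike-in centring only 3 of the 7 rises passed, those of 1418562_at (Sf3b1), 1430075_at (Sf3b3) and 1425487_at (Slu7). Where on each transcript these probe sets lie is not given in the annotation used, so which parts of the mRNAs differ was not tested.

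**Figure D4:**
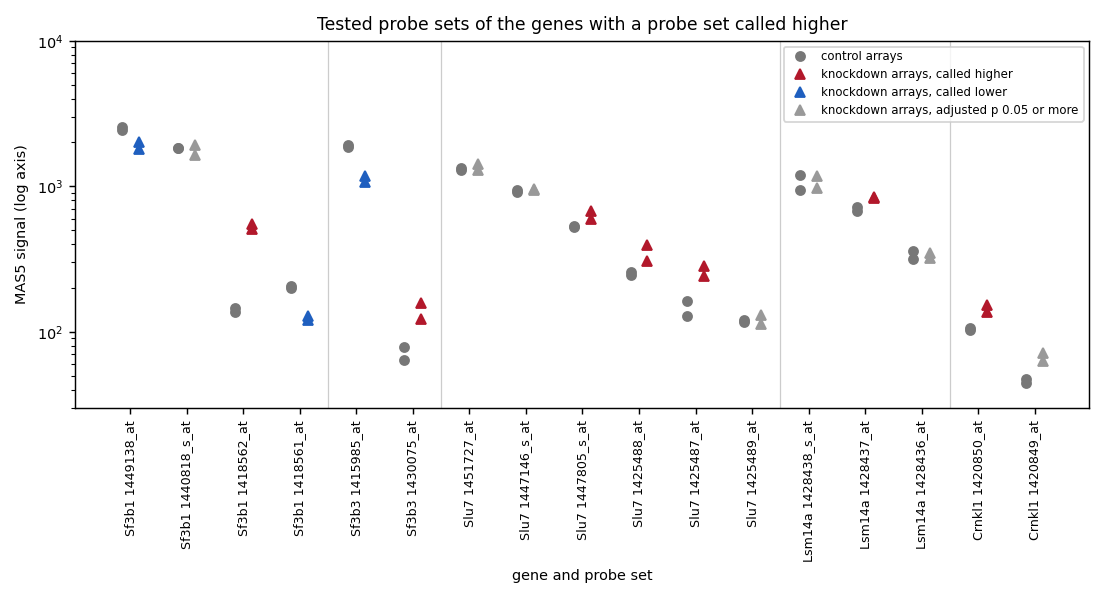
MAS5 signal (log axis) of every tested probe set of the 5 member genes with a probe set that rose, with control arrays as circles and knockdown arrays as triangles coloured by call. In Sf3b1 the triangles lie above the circles at 1418562_at (511 to 550.1 against 137 to 145) and below them at 1449138_at and 1418561_at.

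Other genes of the pathway, listed beside the members, lay nearer to the background. Of 92 listed genes 78 were tested, of which 38 fell (48.7%, against 35.2% of all tested genes), 4 rose (5.13%, against 9.79%) and 36 did not pass. Their median log2 fold change was -0.21 against -0.16 for all genes, and the difference from the members was not tested. Among 20 genes of snRNP assembly and transport, the steps in which the SMN complex loads Sm proteins onto snRNAs, 9 fell (45%) and 3 rose (15%), shares not far from those of all genes. Tssc4, a chaperone of U5 and the tri-snRNP, read 319 and 313 in the knockdown, against 509 and 499 in the control (-0.65 ± 0.09), and Gemin8, a subunit of the SMN complex, read 84.8 and 74.7 against 133 and 135 (-0.65 ± 0.14). The 3 that rose were Ncbp2, the cap-binding subunit (0.45), Larp7 (0.37), which binds the small nuclear RNA 7SK and U6, and Strap (0.27), a partner of the SMN complex; all 3 were named after their values were seen. As the mean of probe sets Ncbp2 was at 0.19 and Strap at 0.64.

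Of 48 further snRNP and spliceosome proteins 23 fell (47.9%, against 35.2% of all tested genes), 1 rose (2.08%, against 9.79%) and 24 did not pass. Cherp, a U2-associated protein, showed the largest change in these lists, from 969 and 985 in the control to 308 and 288 in the knockdown (-1.66 ± 0.08, adjusted p = 2.77e-10, limma), a larger fold than any member gene had at its brightest probe set. Cwc27, a cyclophilin-like protein of the activated spliceosome, read 59.8 and 70.9 against 134 and 140.1, at -0.91 ± 0.14. Phf5a, the SF3b subunit outside the naming rule, fell by 0.30, while the SF3b members ranged from -0.73 to 0.08. Luc7l3, a U1-associated protein named after its value was seen, was the 1 that rose, by 0.21, although the mean of its probe sets was 0.

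In the list of further minor spliceosome proteins 3 of 7 fell (42.9%, near the 35.2% of all genes), and the list's median of -0.03 lay above the all-gene median. The U11/U12 protein Pdcd7 was at -0.71 ± 0.13, with 90.4 and 114 in the knockdown, against 180 and 174 in the control, and Armc7 was at -0.49 ± 0.12. In the exon junction complex, which is deposited on mRNA during splicing, all 3 tested genes of the 6 listed fell, too few to set against the 35.2%. Casc3 fell by 0.65 ± 0.10, from 685 and 655 to 369 and 481. Rbm8a fell by 0.33 ± 0.06 and Rnps1, a peripheral partner, by 0.18. As the mean of probe sets Rbm8a was at -0.19 and Rnps1 at -0.1. Eif4a3, Magoh and Magohb were listed but not tested.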

How the data were processed

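The authors deposited 1 MAS5 signal per probe set, an intensity on a linear scale, per the submitters' processing notes; the sources used here give no version, scaling target or filter. Per the labels' protocols, 200 ng of poly(A)+ RNA went into the labelled cRNA. Signals were put on the log2(signal + 16) scale with no added scaling. Probe sets with a mean at or above the median of the 45037 that are no controls were tested, above a signal of about 16.4, which left 22519 probe sets and 11804 genes. Of the 45037, 34945 carried 1 symbol, 932 several and 9160 none. All 148 member probe sets matched a RefSeq gene by Entrez identifier. The number of arrays limits the precision.

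Groups were compared with limma 3.58.1 in R 4.3.3 (lmFit and a trended eBayes; tests were two-sided, on 17 degrees of freedom for genes and 13.6 for probe sets, with Benjamini-Hochberg adjustment over all tested genes or probe sets). Members and lists were chosen with earlier results of these data known, so no p is given for a list. Per-array values are given for the 3 largest changes in each role and for genes whose probe sets disagree (31 genes), and values of further probe sets were added after they were seen; the 2 largest changes of each other list are named. The fit was tested on simulated data for this comparison and its 11804 genes: it found 94 of the 100 genes given a log2 change of 1 and 53 of the 100 given 0.5, and it also called 10 of 11604 left unchanged. In the deposited data 35.2% of all tested genes fell and 9.79% rose, and how many of these calls were false was not tested. Alternatives covered pseudocounts of 1 and 64, 4 scalings, 2 filters, the trend, a replicate block, probe set choice and each array left out. Figures used matplotlib 3.10.9 in Python 3.11.15.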

Additional observations from a re-analysis of the deposited data

How the results depend on the processing

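The count of member genes that fell stayed within 1.5 times the 43 of the deposited scale under all 16 alternatives, from 32 (quantile scaling, centring on the tested probe sets) to 50 (spike-in centring), and ranged from 38 to 46 with 1 array left out. The 1 member gene that rose became 5 with quantile scaling and with centring on the tested probe sets, 0 with spike-in centring and without the filter, 2 once _x_at and _s_at probe sets were dropped and as the mean of probe sets, and 0 to 1 with 1 array left out. The 7 member probe sets that rose became 16, 15, 3 and 4 with quantile scaling, centring on the tested probe sets, spike-in centring and no filter, and 4 to 6 with 1 array left out, the 4 being without knockdown replicate 2. The 69 that fell became 45 without the intensity trend. Among the other spliceosome genes the 4 that rose became 15 with quantile scaling, 7 and 13 with centring on all and on the tested probe sets, 1 with spike-in centring, 1 without the trend, and 3 to 9 with 1 array left out, the 9 being without control replicate 1. Of all tested genes 22.6% fell and 17.7% rose with quantile scaling, and 24% and 17.3% with centring on the tested probe sets. With spike-in centring 45.2% fell and 4.79% rose. The cause of the moves in these counts was not tested.

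Among the 31 genes with per-array values the direction turned for Sf3b3 (0.05) and Sf3b1 (0.18) as the mean of probe sets, where opposite probe sets are averaged, and for Snrnp35, which passed nowhere: 0.06 with quantile scaling, 0 and 0.09 with centring on all and on the tested probe sets, and -0.16 to 0.10 with 1 array left out. Of the other members Snrpb, which fell, was at 0.03 with centring on the tested probe sets. The signs of Sf3b2, Sf3b4, Prpf4, Prpf31, Prpf38a, Slu7, Snrnp40, Lsm12 and Lsm14a, which did not pass on the deposited scale, also turned under a scaling or as the mean of probe sets. Same-numbered arrays did not deviate together (r = 0.00171 across tested probe sets), and with the replicate block 42 member genes fell and 1 rose. Dim probe sets, such as that of Snrpn, limit what can be measured.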
